A study of Mus musculus with 6 samples.

Results

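Base excision repair was followed through 10 genes in 4T1 cells treated with P3FI-90, a compound described by the study as a selective inhibitor of the histone demethylase KDM3B. The genes were Ung, Ogg1, Mutyh, Neil1 and Nthl1, which encode DNA glycosylases, Apex1, which encodes the AP endonuclease also known as Ref-1, and Parp1, Xrcc1, Polb and Lig3, which act on the resulting break. They were chosen by symbol, and all 10 were found among the 22116 named gene rows of the deposited count table. 4T1 is a mouse mammary epithelial cancer line used as a model of triple-negative breast cancer. Cells were grown in DMEM with 10% fetal bovine serum and penicillin-streptomycin. They received DMSO as the vehicle (3 libraries) or 10 µM P3FI-90 (3 libraries) for 24 h. No genetic change or further agent is named for either group. Every value therefore comes from a single cell line, a single dose and a single time.

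The libraries held between 31327094 and 37395732 counts on named genes, and all 10 genes passed the filter on low counts that left 12288 genes to test. Nothing in the labels says whether the 3 libraries of a group came from separate cultures, so p-values measure the spread between these libraries, which may be technical. The epithelial markers Epcam, Cdh1, Krt8 and Krt18 were present in every library. Their summed level was 96646 to 101190 normalized counts in DMSO and 47898 to 50260 after P3FI-90. Of these markers 4 of 4 were called lower at an adjusted p under 0.05, as were 39.4% of all 12288 genes tested. The 5 leukocyte markers summed to 368 to 434 and 279 to 401 normalized counts, with Adgre1 at 0 in every library, and the 4 fibroblast and endothelial markers to 1425 to 1436 and 991 to 1091, nearly all of it Pdgfra. The part of these markers in the results was not tested, and fewer cells of a type and less RNA per cell cannot be told apart in such bulk samples. Kdm3b itself had 2851 ± 67.4 normalized counts (SD, n = 3) in DMSO and 3109 ± 55.7 after P3FI-90, a log2 fold change of 0.13 (edgeR adjusted p = 0.0169), which became -0.05 once the dependence of fold changes on length and GC was removed. It was 0.34 with total-count scaling, and in 4 further settings of 16 it kept its direction without passing.

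Base excision repair removes small lesions such as oxidized, deaminated or alkylated bases. A glycosylase cuts the damaged base from the sugar and leaves an abasic site, APE1 (the product of Apex1) nicks the strand beside that site, PARP1 marks the nick, XRCC1 gathers the later enzymes, DNA polymerase beta fills the gap and DNA ligase III seals it. APE1 also has a redox activity, for which it is called Ref-1, that keeps the DNA-binding domains of several transcription factors in the reduced state.

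All 10 genes passed the test at an adjusted p under 0.05, with 7 lower and 3 higher after P3FI-90. In these cells such calls were common. Of all 12288 genes tested, 79.3% were called, 39.9% as higher and 39.4% as lower, so that the share of called members is to be read against a transcriptome that mostly moved. With libraries scaled by total counts alone, the split over all genes was 6179 higher and 3641 lower, against 4908 and 4841 with the scaling used here, while the 10 members kept 7 lower and 3 higher. The P3FI-90 libraries lay wholly above or wholly below the DMSO libraries in 10 of 10 members, against 81.2% of all genes tested. The median log2 fold change of the members was -0.78, compared with 0.01 over all genes tested. The lower genes included the endonuclease Apex1, the uracil glycosylase Ung and the ligase Lig3, and the higher genes were the scaffold Xrcc1, the polymerase Polb and the glycosylase Ogg1.

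**Figure D1:**
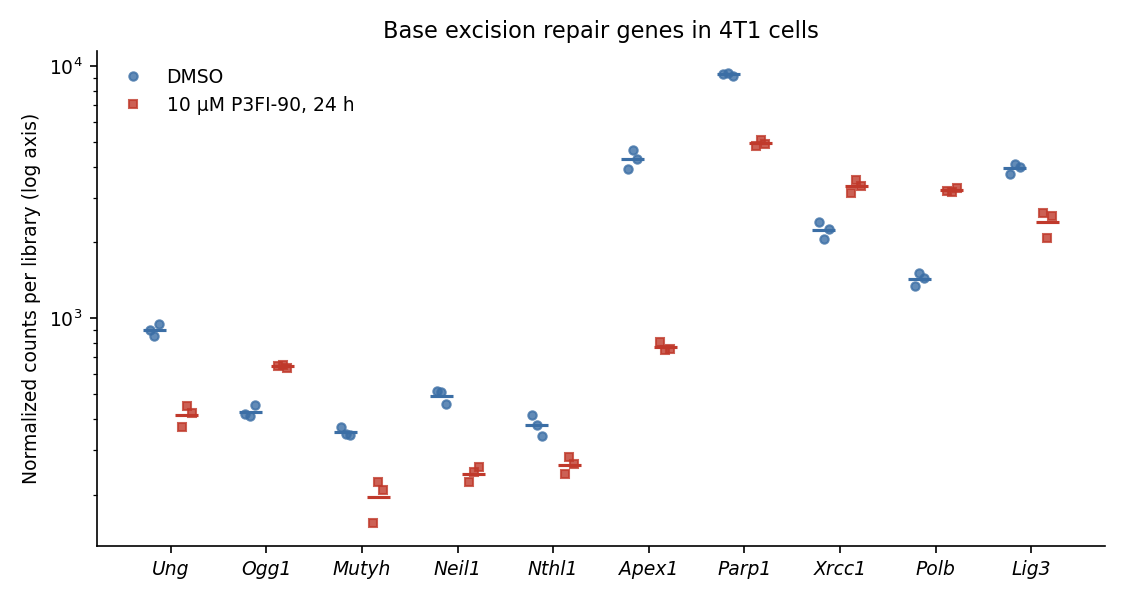
Normalized counts of the 10 genes (log axis) in each of the 3 DMSO libraries (blue circles) and the 3 P3FI-90 libraries (red squares), with a bar at each group mean. The groups do not overlap for any gene, and the widest gap is that of Apex1, with 3915 to 4644 in DMSO and 752 to 805 after P3FI-90.

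The glycosylases start repair, each at its own lesions. Ung, which removes uracil from DNA, had 902, 850.3 and 948 normalized counts in the DMSO libraries and 372, 449.6 and 420.3 in the P3FI-90 libraries. Every treated library had less than every control library. Ung (ENSMUSG00000029591) fell by 1.12 on the log2 scale (SE 0.0891, edgeR adjusted p = 3.46e-08), to 46% of its DMSO level. Neil1, which acts on oxidized pyrimidines and ring-opened purines, had 513, 508 and 458 normalized counts in DMSO and 224, 245 and 257 after P3FI-90. Its groups were again apart, and Neil1 (ENSMUSG00000032298) fell by 1.03 (SE 0.11, edgeR adjusted p = 8.49e-07).

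Mutyh, which takes out adenine paired with 8-oxoguanine, had 371, 347 and 346 normalized counts in DMSO and 154, 224 and 208 after P3FI-90. The first P3FI-90 library was the lowest and set the wider spread of that group, 195 ± 36.4 (SD, n = 3). Mutyh (ENSMUSG00000028687) fell by 0.86 (SE 0.146, edgeR adjusted p = 8.99e-05). Nthl1, which removes oxidized pyrimidines such as thymine glycol, had 414, 376 and 341 normalized counts in DMSO and 242, 283 and 264 after P3FI-90. Its change was the smallest among the 7 lower genes, and Nthl1 (ENSMUSG00000041429) fell by 0.52 (95% interval -0.78 to -0.26, edgeR adjusted p = 0.00134).

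Ogg1, which excises 8-oxoguanine itself, moved the other way. It had 419, 409 and 453 normalized counts in DMSO and 647, 654 and 634 after P3FI-90, and the treated libraries lay close together above the controls. Ogg1 (ENSMUSG00000030271) rose by 0.59 on the log2 scale (SE 0.085, edgeR adjusted p = 1.78e-05). Its exons share 232 bases, 10.6% of the annotated Ogg1 exon bases, with exons of Camk1 on the opposite strand, and whether counting used strand is not given in the sources used here. Camk1, a calmodulin-dependent kinase, fell by 0.83 (edgeR adjusted p = 1.26e-08) from 1593 ± 73 to 895 ± 30.3 normalized counts. Summed over both genes, the normalized counts were 2074, 2022 and 1966 in DMSO and 1576, 1525 and 1518 after P3FI-90. The log2 fold change of the sum was -0.39 (edgeR adjusted p = 4.32e-06). Camk1 made up most of this whole-gene sum, though only 3.88% of its exon bases are shared. The sum therefore does not test the direction of Ogg1, which is given for its own row.

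Apex1 (ENSMUSG00000035960, chromosome 14) carried the largest change of the 10 genes. It had 3915, 4644 and 4289 normalized counts in the DMSO libraries and 805, 752 and 755 in the P3FI-90 libraries. The lowest control library was far above the highest treated library, and the treated libraries were nearly equal. Apex1 fell by 2.47 on the log2 scale (SE 0.0661, 95% interval -2.62 to -2.33, edgeR adjusted p = 4.06e-13), to 18% of its DMSO level. This placed it at rank 96 from the lowest log2 fold change among the 12288 genes tested, with 0.773% of the genes below it, and 10.6% of all genes were called with a log2 fold change under -1. The study singled out Apex1 in these same libraries, so its direction here is not independent evidence, and the study's other measurements of Apex1 were not used here. An exact two-sided permutation test of 3 against 3 libraries gave p = 0.1, the smallest value this design allows, and the adjusted p rests on the model over all genes.

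**Figure D2:**
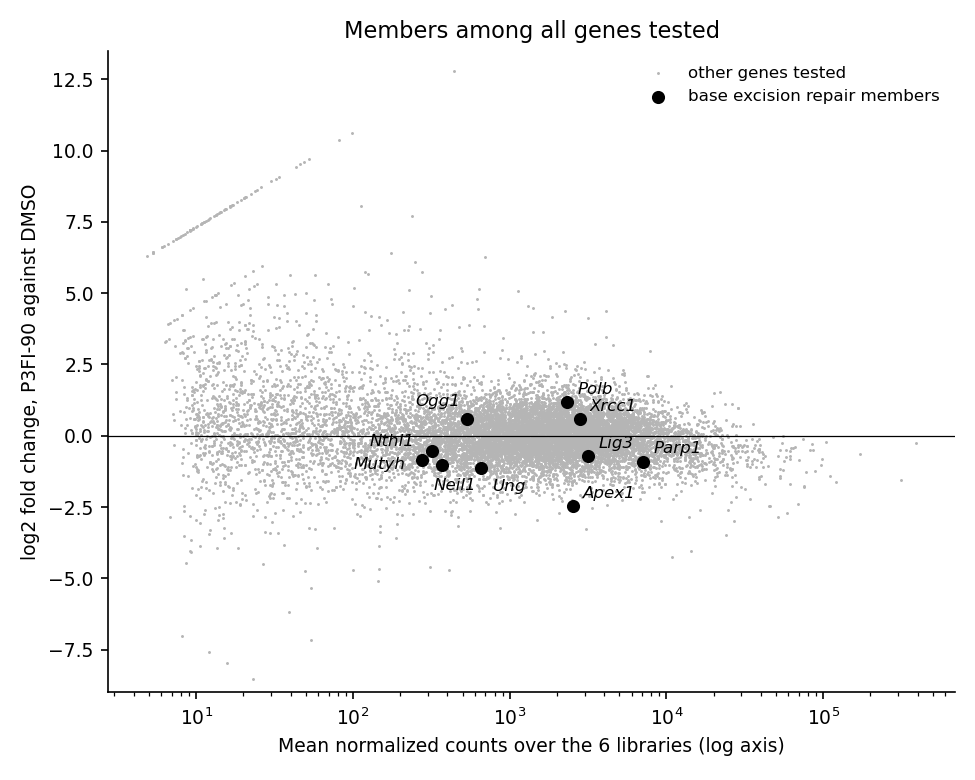
Log2 fold change of P3FI-90 against DMSO for all 12288 genes tested (grey) and the 10 base excision repair genes (black), against the mean normalized count over the 6 libraries on a log axis. The grey streak at the upper left holds genes without counts in DMSO, whose fitted values depend on the prior count, and Apex1 at -2.47 sits at the lower edge among genes of similar abundance, with Polb at 1.17 above zero.

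The surroundings of Apex1 bear on how its counts were assigned. In the GENCODE M21 annotation, 877 bases or 61.7% of the Apex1 exon bases are also exon bases of Pip4p1, a phosphoinositide phosphatase gene on the opposite strand. The overlap comes from the long last exon of 1 of the 11 annotated Pip4p1 transcripts, and it reaches all 4 annotated Apex1 transcripts. Of the 50-base windows of the Apex1 transcripts, 51.7% also occur in another gene when both strands are counted and 0.331% when only the same strand is. Pip4p1 had 2798, 2386 and 2428 normalized counts in DMSO and 3502, 2982 and 3134 after P3FI-90, so it was higher in every treated library (log2 fold change 0.34, edgeR adjusted p = 4.84e-04). The sum of both genes was 6713, 7030 and 6717 normalized counts in DMSO and 4307, 3733 and 3889 after P3FI-90. That sum fell by 0.78 on the log2 scale (SE 0.0484, edgeR adjusted p = 2.32e-09), a smaller change than that of the Apex1 row. It takes in all counts of Pip4p1, though only 19.5% of the Pip4p1 exon bases are shared. The sum therefore does not measure the change of Apex1 itself, and reads of the shared stretch cannot be told apart without strand.

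On the other side, the first exons of Osgep lie on the opposite strand with a gap of 75 bases to Apex1, so that both genes start from the same short stretch of DNA. Osgep, which encodes the catalytic subunit of a complex that modifies transfer RNAs, had 1283, 1247 and 1344 normalized counts in DMSO and 704, 681 and 739.6 after P3FI-90. Its groups did not overlap, and it fell by 0.87 (SE 0.0654, edgeR adjusted p = 1.92e-08). The ratio of Apex1 to Osgep per kilobase, taken within each library and so free of library scaling, was 9.09 ± 0.973 (SD, n = 3) in DMSO and 2.98 ± 0.171 after P3FI-90 (exact two-sided permutation p = 0.1, the smallest possible). The ratio was lower in every treated library than in any control library, so the divergent neighbours changed unequally.

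**Figure D3:**
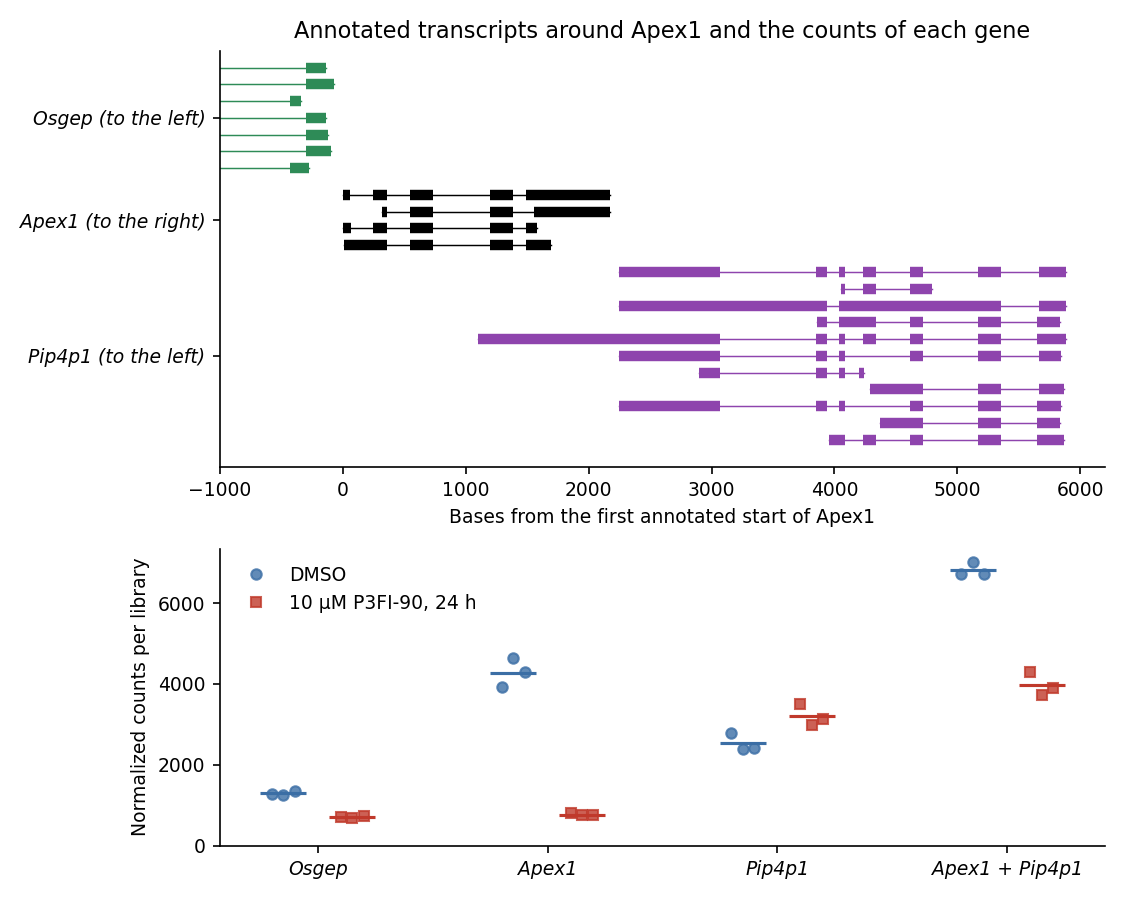
Above, the annotated transcripts of Osgep, Apex1 and Pip4p1 (boxes are exons, lines are introns) in bases from the first annotated start of Apex1, with the direction of transcription beside each name. Below, the normalized counts of each gene and of Apex1 and Pip4p1 summed, per library with a bar at the group mean: the sum lies between 6713 and 7030 in DMSO and between 3733 and 4307 after P3FI-90.

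The stretch between the starts of Osgep and Apex1 is shown because it is the shared upstream sequence of the gene with the largest change. It stands with the upstream stretches of Lig3 and Parp1, which hold the same E-box, and of Ogg1, a higher gene without it, although most of the lower genes also lack it. Each is the exon-free sequence nearest the RefSeq start within 250 bases upstream, from RefSeq on build GRCm38.p6, 5′ to 3′ on the strand of the gene. The capitals mark matches on either strand to the E-box letters CACGTG, to the CCAAT box, to the GC box letters GGGCGG and to the ETS core letters CCGGAA.
Apex1, chr14:50924894-50924948, plus strand: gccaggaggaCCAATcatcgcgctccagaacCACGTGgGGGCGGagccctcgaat
Lig3, chr11:82781043-82781107, plus strand: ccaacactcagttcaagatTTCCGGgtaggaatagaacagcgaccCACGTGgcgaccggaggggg
Parp1, chr1:180568641-180568890, plus strand: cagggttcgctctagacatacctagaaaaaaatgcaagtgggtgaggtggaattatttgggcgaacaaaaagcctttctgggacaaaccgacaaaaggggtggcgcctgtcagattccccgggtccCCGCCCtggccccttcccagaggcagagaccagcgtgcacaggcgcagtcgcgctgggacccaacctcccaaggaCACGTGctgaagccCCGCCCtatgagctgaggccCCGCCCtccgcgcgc
Ogg1, chr6:113326748-113326971, plus strand: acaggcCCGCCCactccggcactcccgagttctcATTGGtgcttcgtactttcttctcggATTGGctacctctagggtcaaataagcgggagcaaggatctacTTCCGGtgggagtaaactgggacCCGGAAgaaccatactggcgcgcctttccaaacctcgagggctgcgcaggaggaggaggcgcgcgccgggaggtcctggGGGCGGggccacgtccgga

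RefSeq upstream windows were matched for 9 of the 10 genes, and of the 2 windows of Mutyh only the first was counted. The E-box letters CACGTG, which read the same on both strands, occurred upstream of 3 of these 9 genes (Apex1, Lig3 and Parp1), against 6.04% of the 32526 distinct windows of 250 bases in the table. They began 24 bases before the start of Apex1, 21 before that of Lig3 and 49 before that of Parp1, and all 3 genes were lower after P3FI-90. Of the 9 genes 7 were lower in all, and the other 4 of them (Ung, Mutyh, Neil1 and Nthl1) lacked these letters, as did the higher genes Ogg1 and Xrcc1. Lig3 and Parp1 are shown for that match, which was seen after their values were known. CCAAT occurred upstream of 5 of 9 genes against 33.8% of all windows, GGGCGG of 6 of 9 against 33%, CCGGAA of 4 of 9 against 12.1% and TGACG, the core of the cAMP response element, of 3 of 9 against 17.9%. The windows used for comparison were not limited to the genes tested here. Each of these matches, and not only the E-box, was more frequent among the 9 genes than among those windows. Whether the 9 genes differ in this from other tested genes was not tested. All are matches of letters and not sites of binding.

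Parp1 and Xrcc1, which act at the nick that APE1 leaves, moved in opposite directions. Parp1, the enzyme that adds ADP-ribose chains at strand breaks, had 9332, 9376 and 9135 normalized counts in DMSO and 4804, 5116 and 4929 after P3FI-90. The libraries of each group were close together and far from the other group, and Parp1 (ENSMUSG00000026496) fell by 0.91 (SE 0.0355, edgeR adjusted p = 1.70e-11). Xrcc1, the scaffold that binds those chains and holds polymerase beta and ligase III, had 2412, 2061 and 2259 normalized counts in DMSO and 3147, 3545 and 3358 after P3FI-90. Xrcc1 (ENSMUSG00000051768) was higher in every treated library and rose by 0.58 (SE 0.0618, edgeR adjusted p = 8.78e-07).

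The last steps were split in the same way. Polb, which encodes the polymerase that fills the gap and trims the sugar remnant, had 1346, 1507 and 1443 normalized counts in DMSO and 3212, 3179 and 3281 after P3FI-90. Every treated library held more than every control library, and Polb (ENSMUSG00000031536) rose by 1.17 on the log2 scale (SE 0.0533, edgeR adjusted p = 8.10e-11), to 225% of its DMSO level. Of all genes tested, 12.7% were called with a log2 fold change over 1. Lig3, the ligase of nuclear short-patch repair and of mitochondrial DNA, had 3737, 4079 and 3996 normalized counts in DMSO and 2606, 2073 and 2546 after P3FI-90. The second P3FI-90 library was the lowest, the groups did not overlap, and Lig3 (ENSMUSG00000020697) fell by 0.71 (SE 0.0725, edgeR adjusted p = 5.33e-07).

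Lig3 also shares exon bases with a gene on the other strand, 1826 bases or 25.1% of its own, with Rffl, which encodes a ubiquitin ligase. Rffl rose by 0.33 (edgeR adjusted p = 5.16e-05) from 1448 ± 11.5 to 1816 ± 87.4 normalized counts. The sum of Lig3 and Rffl was 5186, 5515 and 5454 in DMSO and 4447, 3960 and 4264 after P3FI-90 and fell by 0.35 (edgeR adjusted p = 5.68e-06). Only 30.8% of the Rffl exon bases are shared, so this whole-gene sum does not measure the change of Lig3 itself. Ung, Mutyh, Neil1, Nthl1, Parp1, Xrcc1 and Polb shared no exon bases with another gene row of the table.

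To set the genes beside each other, normalized counts were divided by the length of the longest annotated transcript. Per kilobase, Apex1 was the most abundant of the 10 in DMSO, with 3457 ± 294 normalized counts per kilobase (SD, n = 3), followed by Parp1 with 2396 ± 33.1, Xrcc1 with 887 ± 69.6, Lig3 with 661 ± 29.9 and Polb with 427 ± 24.1. Neil1 (291 ± 17.9), Ung (290.4 ± 15.8) and Ogg1 (267 ± 14.3) came next, and Nthl1 (181 ± 17.5) and Mutyh (173 ± 7.05) were last. Within each of these last sets of neighbours the libraries overlapped, so their order is not resolved.

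After P3FI-90 the order was different at the top. Xrcc1 (1325 ± 78.9 normalized counts per kilobase) and Parp1 (1278 ± 40.6) led and overlapped, Polb followed with 961 ± 15.5 and Apex1 came after it with 622 ± 23.9. Lig3 (404 ± 49.1) and Ogg1 (403 ± 6.29) overlapped, as did Neil1 (143 ± 9.92), Ung (134 ± 12.6) and Nthl1 (126 ± 9.81), and Mutyh was lowest with 95.4 ± 17.8. The share of Apex1 in the summed per-kilobase level of the 10 genes was 36%, 40.3% and 38.4% in the DMSO libraries and 12.1%, 10.9% and 11% in the P3FI-90 libraries. It was thus 26.9 percentage points lower after P3FI-90, with group means of 38.2% ± 2.18 and 11.3% ± 0.648 (SD, n = 3; exact two-sided permutation p = 0.1). Without the division by length the difference was -13.4 points. The share of Polb went from 4.72% to 17.5% and that of Xrcc1 from 9.85% to 24.1%, while that of Lig3 was 7.32% and 7.37%.

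**Figure D4:**
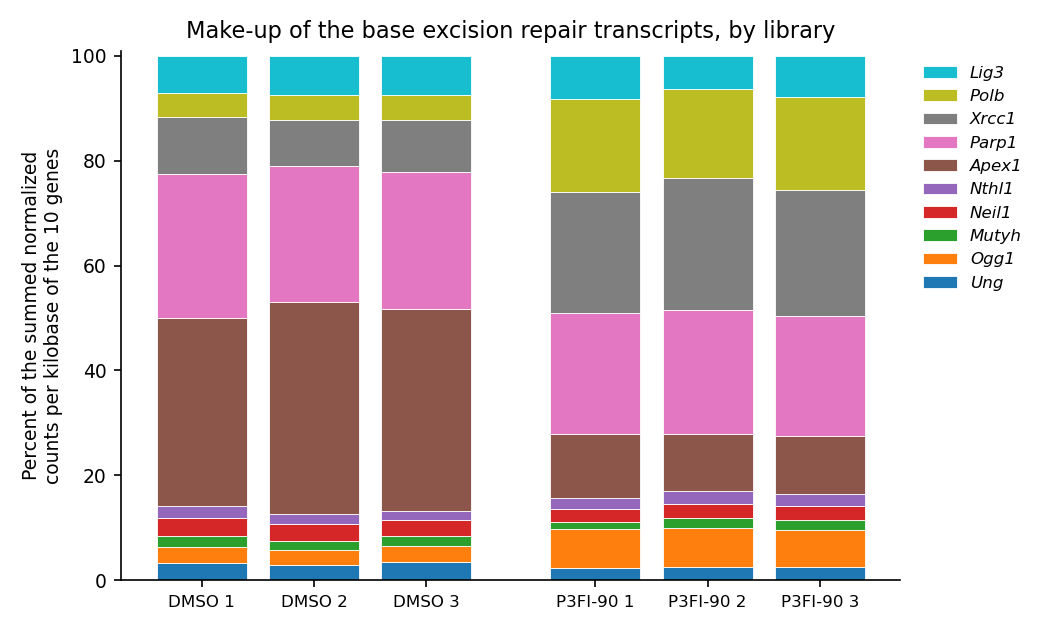
Each bar is a library and shows the percent that each of the 10 genes had of their summed normalized counts per kilobase of the longest annotated transcript. Apex1 (brown) holds 36% to 40.3% of the sum in the DMSO libraries and 10.9% to 12.1% in the P3FI-90 libraries, where Polb (olive) and Xrcc1 (grey) hold larger shares.

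Ratios taken within a library do not depend on the scaling between libraries. Apex1 to Polb, the enzymes of incision and of filling, was 7.87, 8.34 and 8.04 per kilobase in DMSO and 0.678, 0.64 and 0.623 after P3FI-90. The ratio was 12.5 times as high in DMSO as after P3FI-90, and Apex1 passed from above Polb to below it in every treated library. Parp1 to Xrcc1 was 2.53, 2.97 and 2.64 in DMSO and 0.996, 0.942 and 0.958 after P3FI-90. Lig3 to Xrcc1, partners in a stable complex, was 0.658, 0.84 and 0.751 in DMSO and 0.351, 0.248 and 0.322 after P3FI-90, and Ung to Ogg1 was 1.09 ± 0.0206 and 0.332 ± 0.0303 (SD, n = 3). In each pair a gene lower in every treated library stood over a gene higher in every treated library. The ratios therefore could not overlap between the groups, and this adds no evidence beyond that of the single genes. For the same reason each exact two-sided permutation test gave p = 0.1, the smallest possible with 3 libraries against 3.

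A further 54 genes of the pathway and its partners were grouped in 7 lists, of which 52 genes were tested. Of these, 27 were lower, 13 higher and 12 neither, with a median log2 fold change of -0.22, compared with 0.01 over all genes tested. With total-count scaling 22 were higher and 20 lower. In the main setting 76.9% were called, 51.9% as lower and 25% as higher. Of all genes tested 79.3% were called, 39.4% as lower and 39.9% as higher, and the counts of each list below are to be read against these shares. Of the other glycosylases, 2 of 5 tested fell and none rose. Mbd4, which acts on thymine or uracil opposite guanine at CpG sites, fell by 0.93 (edgeR adjusted p = 1.97e-06) from 571 ± 27.5 to 300.5 ± 33.4 normalized counts. Mpg, which removes alkylated bases, fell by 0.43 (edgeR adjusted p = 0.00764), a call that was lost with total-count scaling and with the length and GC dependence removed. Tdg, Neil3 and Smug1 passed no threshold, and Neil2 was below the filter.

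Among 11 genes for end processing and ADP-ribosylation, 6 fell, 4 rose and 1 did neither. Tdp1, which frees trapped topoisomerase I from DNA ends, fell by 1.52 (edgeR adjusted p = 3.78e-11), with 2261, 2080 and 2363 normalized counts in DMSO and 787, 732 and 819 after P3FI-90. Apex2, the paralog of Apex1, had 686, 688 and 788 in DMSO and 309, 259 and 296 after P3FI-90 and fell by 1.32 (edgeR adjusted p = 2.56e-08). Both AP endonuclease genes were thus lower in every treated library, and the ratio of Apex1 to Apex2 per kilobase still went from 22.8 ± 2.65 to 10.3 ± 0.721 (SD, n = 3; exact permutation p = 0.1). Parp3, a further ADP-ribosyltransferase, rose by 0.65 (edgeR adjusted p = 6.65e-06). Aptx, which removes stalled adenylate from DNA ends, was 0.26 higher (edgeR adjusted p = 0.0456), and it no longer passed in 8 of 16 alternative settings.

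Long-patch repair replaces several bases and borrows the replication machinery. Of its 16 genes, 8 fell, 5 rose and 3 did neither, with a median log2 fold change of -0.11. Pold2, a subunit of DNA polymerase delta, fell by 1.62 from 3784 ± 268 to 1233 ± 91.1 normalized counts (edgeR adjusted p = 2.48e-11), and Lig1, the replicative ligase, fell by 0.97 from 8004 ± 338 to 4094 ± 183 (edgeR adjusted p = 6.37e-11). Pole4, a histone-fold subunit of polymerase epsilon, rose by 0.86 (edgeR adjusted p = 1.21e-09) and Rfc4, a subunit of the clamp loader, by 0.57 (edgeR adjusted p = 7.05e-07). The fall of Lig1 and that of Lig3 left both ligases of the pathway lower after treatment.

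The nucleotide pool enzymes keep damaged or wrong bases from entering DNA in the first place. Of 6 genes 4 fell, 1 rose and 1 did neither. Nudt1, which encodes the 8-oxo-dGTP hydrolase MTH1, fell by 1.17 (edgeR adjusted p = 9.37e-08), with 522, 564 and 526 normalized counts in DMSO and 245, 241 and 229 after P3FI-90. Nudt18 rose by 0.46 (edgeR adjusted p = 1.90e-05). Of the direct reversal genes Alkbh3 rose by 0.76 (edgeR adjusted p = 3.72e-08), and Mgmt had no counts in any library.

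**Figure D5:**
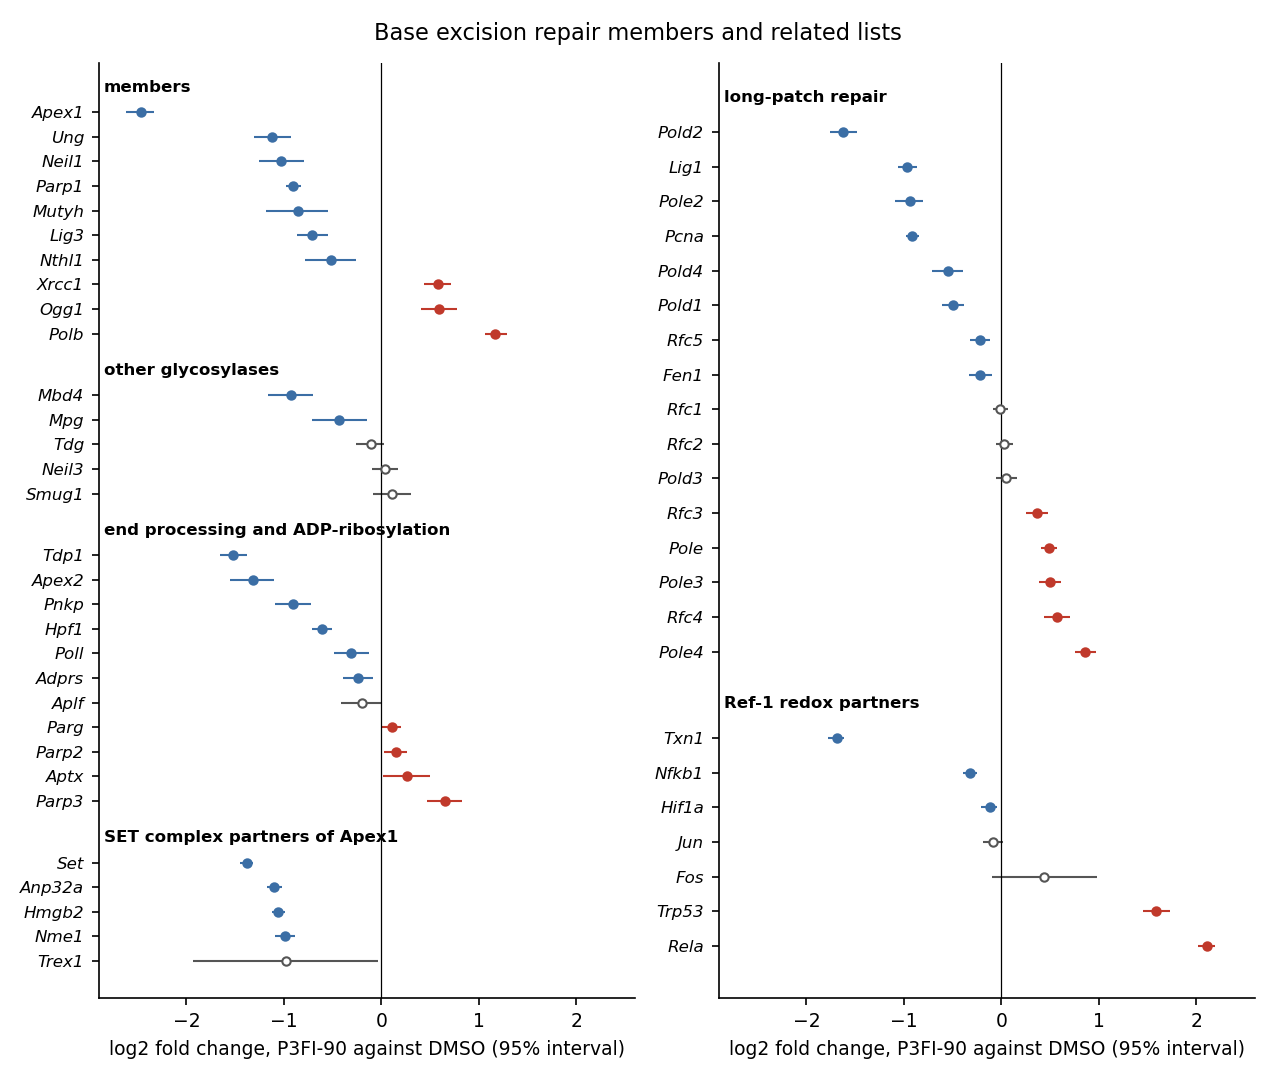
Log2 fold changes of P3FI-90 against DMSO with 95% intervals for the 10 members and for the genes of 5 related lists that were tested, blue for lower, red for higher and open circles for neither at an adjusted p under 0.05. The members run from -2.47 for Apex1 to 1.17 for Polb, and the SET complex list lies to the left of zero as a whole, with Trex1 not called.

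APE1 is also known as a member of the SET complex, a protein assembly of the endoplasmic reticulum and nucleus. Of its 5 other genes 4 fell and none rose, with a median log2 fold change of -1.06. Of all genes tested 79.3% were called, 39.4% as lower. Set, the histone chaperone that names the complex, had 34363, 34386 and 33729 normalized counts in DMSO and 12796, 13063 and 13408 after P3FI-90 and fell by 1.38 (edgeR adjusted p = 5.18e-14). Anp32a, an acidic nuclear phosphoprotein that binds it, fell by 1.10 (edgeR adjusted p = 1.51e-12). Trex1, the cytosolic DNA exonuclease, had 110.3, 37.3 and 35.7 normalized counts in DMSO and 22.5, 41.4 and 29.4 after P3FI-90. Its groups overlapped, the log2 fold change of -0.98 did not pass (edgeR adjusted p = 0.0547), and it was -0.23 without the first DMSO library, which alone was high. It passed in 6 of 16 alternative settings, with -1.26 when the third DMSO library was left out.

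For the redox function of Ref-1, the list held the reductant Txn1 and 6 transcription factor genes. Of the 7 genes 3 fell, 2 rose and 2 did neither. Txn1, the thioredoxin that restores Ref-1, fell by 1.69 (edgeR adjusted p = 1.20e-13), with 18055, 17991 and 17295 normalized counts in DMSO and 5799, 5450 and 5254 after P3FI-90. Rela, the NF-κB subunit p65, rose by 2.11 (edgeR adjusted p = 1.37e-14) from 2835 ± 113 to 12228 ± 262 normalized counts, and Trp53 rose by 1.59 (edgeR adjusted p = 3.11e-11). Nfkb1 fell by 0.32 (edgeR adjusted p = 9.41e-07). The transcripts of Ref-1 and of thioredoxin were lower in the same libraries in which those of p65 and p53 were higher. The other factor genes fell or were not called, so this held for 2 of the 6.

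Other repair pathways were set beside these genes as counts. In mismatch repair 4 of 8 genes fell and 2 rose, with Pms1 at -2.09 (edgeR adjusted p = 3.01e-10) and Msh3 at 1.00 (edgeR adjusted p = 1.92e-09). In nucleotide excision repair 11 of 26 fell and 10 rose, from Cetn2 at -0.98 and Ddb1 at -0.92 to Ercc8 at 1.40 and Uvssa at 1.62. In non-homologous end joining 3 of 9 fell and 4 rose, from Xrcc6 at -1.89 and Nhej1 at -1.19 to Paxx at 1.17 and Prkdc at 1.58. Over the 43 genes of these 3 lists the counts were 18 lower and 16 higher, with a median log2 fold change of -0.03, while for the 10 members they were 7 and 3 with a median of -0.78. With total-count scaling the 3 lists turned to 15 lower and 23 higher, and the members stayed at 7 and 3. The difference between the lists was not tested, since the members were chosen with results known.

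The genes whose profile over the 6 libraries was most like that of Apex1 were found by the Euclidean distance of centred log2 normalized counts, over the 10570 genes that averaged 100 normalized counts or more. Gcat, which encodes a mitochondrial enzyme of threonine breakdown, was nearest at a distance of 0.175 log2 units and went from 5689 ± 107 to 986 ± 18.8 normalized counts (SD, n = 3). Casp6, an executioner caspase, followed at 0.213, with 1214 ± 22.4 and 231 ± 14.2. Tuba1c, an alpha-tubulin gene, was at 0.232, Cbr2, a carbonyl reductase gene, at 0.246 and Plk1, a mitotic kinase gene, at 0.265. Because the distance takes in the difference between groups, log2 fold changes near the -2.47 of Apex1 follow from the choice. They lay between -2.64 for Cbr2 and -2.39 for Casp6. None of the other 9 members or the 54 related genes was among these 5. Their lowest log2 fold changes were -1.12 for Ung and -1.69 for Txn1, so this absence also follows from the choice of distance.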

How the data were processed

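RNA-seq was analysed from the counts per gene that the authors deposited as whole numbers without normalization. CASAVA, HISAT2, StringTie and build GRCm39 appear in the submitters' processing notes, while roles, versions, counting tool, annotation and strandedness are not given in the sources used here. Genes with a count of 2 outnumbered those with a count of 1 throughout, and whether both mates of a pair were counted is not known. Of 22401 rows, 285 assembled transcripts (0.483% to 0.556% of counts) were left out. Lengths, overlaps and gene order came from GENCODE M21 (21995 identifiers matched), which is on an earlier build, so the only coordinates given are those of the upstream stretches, on GRCm38.p6.

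Analyses used R 4.3.3. Genes were filtered with filterByExpr, scaled by TMM (factors 0.927 to 1.08) and tested with edgeR 4.0.16 by the quasi-likelihood test, with Benjamini-Hochberg adjustment over 12288 genes and calls at an adjusted p under 0.05. Normalized counts are counts brought to a common effective library size, the mean of the 6. Alternatives were other scalings and filters, DESeq2 1.42.0, limma 3.58.1, a replicate block, a length and GC trend removed with splines, and each library left out. Summing overlapping genes was added after seeing the data. The test code was also run on simulated counts in which few genes changed. That run does not check the calls where most genes move, as they did here.

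The members, lists and naming rule were chosen with earlier results of these data known. Named were all members, up to 2 called genes each way per list, genes below the filter, overlapping and neighbouring genes, the 5 profiles nearest Apex1, and Kdm3b. Some of these are not reported here.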

Additional observations from a re-analysis of the deposited data

How the results depend on the processing

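All 10 members kept their direction and their call under 16 alternative settings (160 of 160 values). The log2 fold change of Apex1 ranged from -2.54 without the first DMSO library to -2.26 with total-count scaling, and between -2.54 and -2.42 when single libraries were left out. With the replicate number as a block it was -2.47, and the block changed no member's call. The numbers were not treated as pairs, since equally numbered libraries did not deviate together (correlations of -0.0214, 0.015 and 0.00491). Total-count scaling raised the median log2 fold change of all genes by 0.21 and gave 22 higher genes in the 7 related lists in place of 13. Leaving out single libraries gave 10 to 12. The difference in the share of Apex1 was -13.4 points without length and -24.1 points per coding length, and -28.0 to -25.9 with libraries left out. The sum of Ogg1 and Camk1, mostly Camk1, changed by -0.39, while the Ogg1 row itself rose by 0.59. With the length and GC trend removed Kdm3b was -0.05 in place of 0.13. The cause of these shifts was not tested beyond the construction of each alternative. For the other 43 named genes, 667 of 688 values kept direction and call, 14 lost the call, 6 gained it and 1 reversed. With 3 libraries per group no single-gene exact test can pass, and all p-values cover the spread between these libraries.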
